A study of Mus musculus with 14 samples.

Results

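Retinoic acid is made from vitamin A and acts through nuclear receptors, and 9 genes of this pathway were followed by their symbols among the 20308 gene symbols of an RNA-seq count table from mouse bladder urothelium, the epithelium that lines the bladder. They were the enzymes of synthesis Aldh1a2 and Aldh1a3, the binding protein Crabp2, the receptors Rara, Rarb, Rarg and Rxra, and the enzymes of degradation Cyp26a1 and Cyp26b1. All 9 were listed in the table. Polyadenylated RNA was measured at embryonic day 15.5 in 14 libraries of C57BL/6; 129S4 embryos. The 5 Dnmt1cKO libraries came from Shhcre/+; Dnmt1flox/flox embryos, the 2 Control libraries from Shhcre/+; Dnmt1flox/+ embryos and the 7 Cre neg libraries from littermates without Cre, whose floxed alleles are not given in the sources used here. Dnmt1 is the maintenance DNA methyltransferase. Cre under the Shh locus acts in Shh-expressing cells, which include the urothelium. Tissue of several embryos was combined in each lysate after the urothelium had been parted from the stroma with trypsin. The p-values therefore measure the spread between such pooled lysates.

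Retinaldehyde dehydrogenases oxidise retinal to retinoic acid, which CRABP2 carries to the nucleus. There, heterodimers of a retinoic acid receptor (RAR) and a retinoid X receptor (RXR) sit on DNA at paired copies of a short motif and switch from repression to activation when the ligand binds, while CYP26 enzymes break the ligand down. In the embryonic urinary tract, retinoic acid from the stroma signals to receptors in the epithelium and is known for its role in urothelial progenitors and in ureter insertion. Rarb and Cyp26a1 are classical direct targets of the receptors.

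The promoters of Rarb and Cyp26a1 are shown because these genes, both direct targets of the receptors, were at 0 in some libraries and clearly detected in others, and because their windows hold the receptor motif. Each is a RefSeq window (GRCm38.p6) running from 250 bases before to 50 bases after a transcription start. The window of Rarb is chr14:16575427-16575726 on the minus strand, and that of Cyp26a1 is chr19:37697558-37697857 on the plus strand. Capitals mark the match to the motif DR5, a hexamer, any base at each of 5 spacer positions, and a hexamer again, searched on both strands. The hexamer was AGGTCA, its relative AGTTCA, its relative GGGTCA or its relative GGTTCA.
Rarb promoter: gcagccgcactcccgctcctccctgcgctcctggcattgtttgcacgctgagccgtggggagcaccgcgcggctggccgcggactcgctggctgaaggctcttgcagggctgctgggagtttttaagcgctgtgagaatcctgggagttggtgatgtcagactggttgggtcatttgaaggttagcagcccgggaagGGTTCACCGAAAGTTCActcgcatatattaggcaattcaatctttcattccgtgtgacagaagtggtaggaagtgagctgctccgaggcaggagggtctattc
Cyp26a1 promoter: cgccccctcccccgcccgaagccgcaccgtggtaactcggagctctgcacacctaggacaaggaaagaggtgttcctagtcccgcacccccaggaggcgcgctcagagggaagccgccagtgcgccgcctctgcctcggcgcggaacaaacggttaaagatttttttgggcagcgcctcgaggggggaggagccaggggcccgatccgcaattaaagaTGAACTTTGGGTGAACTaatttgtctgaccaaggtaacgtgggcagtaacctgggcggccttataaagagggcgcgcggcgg
The Rarb match lies on the strand of the gene with its first base at -53 from the start, at 16575513 to 16575529. The Cyp26a1 match lies on the opposite strand with its first base at -32, at 37697776 to 37697792. DR5 was found in 32 of 32851 windows of the mouse genome (0.0974%) and in 2 of the 12 windows of the 7 genes matched by symbol. The same hexamers spaced by 1 base were in 73 windows (0.222%) and spaced by 2 bases in 88 windows (0.268%), with 0 of the 12 windows in either case. A match describes these letters and not receptor binding.

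Library totals ran from 2520509 expected counts in Dnmt1cKO 5 to 13131921 in Control 1, so that 3 counts, the floor used here, correspond to 1.30 and 0.207 CPM (counts relative to the TMM-scaled library size). Dnmt1 measured 9.99, 26.7, 123, 31.2 and 49.1 CPM in Dnmt1cKO libraries 1 to 5, 97.4 and 106 CPM in Control and 41.3 to 193 CPM in Cre neg. The library labelled Dnmt1cKO 3 thus had a Dnmt1 level above both Control libraries, and the fold changes below are also given without it. Stra8, described below, was at 39.0 CPM in that library, at 0 in Dnmt1cKO 5 and at 0 in both Control libraries. Stra8 was named because it was called in these same data, so its level is no separate check of genotype. The Shh level of the library labelled Dnmt1cKO 3, at 3.85 CPM, was the lowest of the 14 libraries. Whether other tissue in that library raised its Dnmt1 level was not tested. The Dnmt1 level of Dnmt1cKO 5 lay within the Cre neg range as well, at its low end and below both Control libraries. Without Dnmt1cKO 5 the log2 fold change of Dnmt1cKO against Cre neg was -1.89 ± 0.67 for Rarg, -1.34 ± 0.41 for Rxra, 2.95 ± 0.72 for Aldh1a2 and 0.35 ± 1.38 for Rarb (SE; edgeR adjusted p = 0.208, 0.134, 0.0496 and 0.963). All 17 urothelial markers were measured and tested, and their mean log2 CPM was 7.69 ± 0.81 in Dnmt1cKO, 7.99 ± 0.68 in Control and 8.54 ± 0.27 in Cre neg (SD; n = 5, 2 and 7). In the library labelled Dnmt1cKO 3 it was 6.59, the lowest of the 14, and Upk2, a uroplakin of the apical urothelial membrane, was at 0. The 16 stroma and smooth muscle markers, all measured, averaged 2.04, 4.70, 7.24, 7.08 and 5.05 log2 CPM in Dnmt1cKO libraries 1 to 5, 5.67 and 7.33 in Control and 1.71 to 5.10 in Cre neg. Their summed level was 261 to 11830 CPM in Dnmt1cKO, 3384 to 12656 CPM in Control and 170 to 3208 CPM in Cre neg. None of these stroma markers was at 0 throughout a group. In bulk samples, fewer cells of a type and less RNA per cell cannot be told apart.

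In Cre neg urothelium the receptors Rxra and Rarg were the most abundant of the 9 mRNAs per length. Levels divided by the longest coding transcript in kb averaged 47.4 ± 14.4 CPM per kb for Rxra, 28.5 ± 5.94 for Rarg, 13.2 ± 11.6 for Aldh1a2, 12.1 ± 8.38 for Crabp2, 4.66 ± 3.09 for Rarb, 1.81 ± 1.56 for Rara, 0.643 ± 1.61 for Aldh1a3 and 0.160 ± 0.263 for Cyp26b1 (SD, n = 7). Cyp26a1 had 0 counts in these libraries. The ranges of neighbours in this order overlapped for every pair, although Rxra lay above Rarg in 7 of 7 libraries and Rarg above Aldh1a2 in 6 of 7. In Dnmt1cKO the order began with Aldh1a2 at 82.8 ± 98.8 CPM per kb, followed by Rxra, Crabp2 and Rarg, and in Control it began with Aldh1a2 at 92.1 ± 75.7 CPM per kb, followed by Rxra, Rarg and Crabp2. These orders by mean rest on few libraries, since Aldh1a2 lay above Rxra in 2 of 5 Dnmt1cKO and 1 of 2 Control libraries, and the Dnmt1cKO medians were 21.5 CPM per kb for Aldh1a2 and 27.5 for Rxra. Rxra lay above Crabp2 in 4 of 5 and Crabp2 above Rarg in 3 of 5 Dnmt1cKO libraries. All neighbours' ranges overlapped in Dnmt1cKO as well. In Control the exceptions were Rarb over Cyp26a1 and Cyp26a1 over Cyp26b1, whose ranges did not overlap in the 2 libraries.

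**Figure D1:**
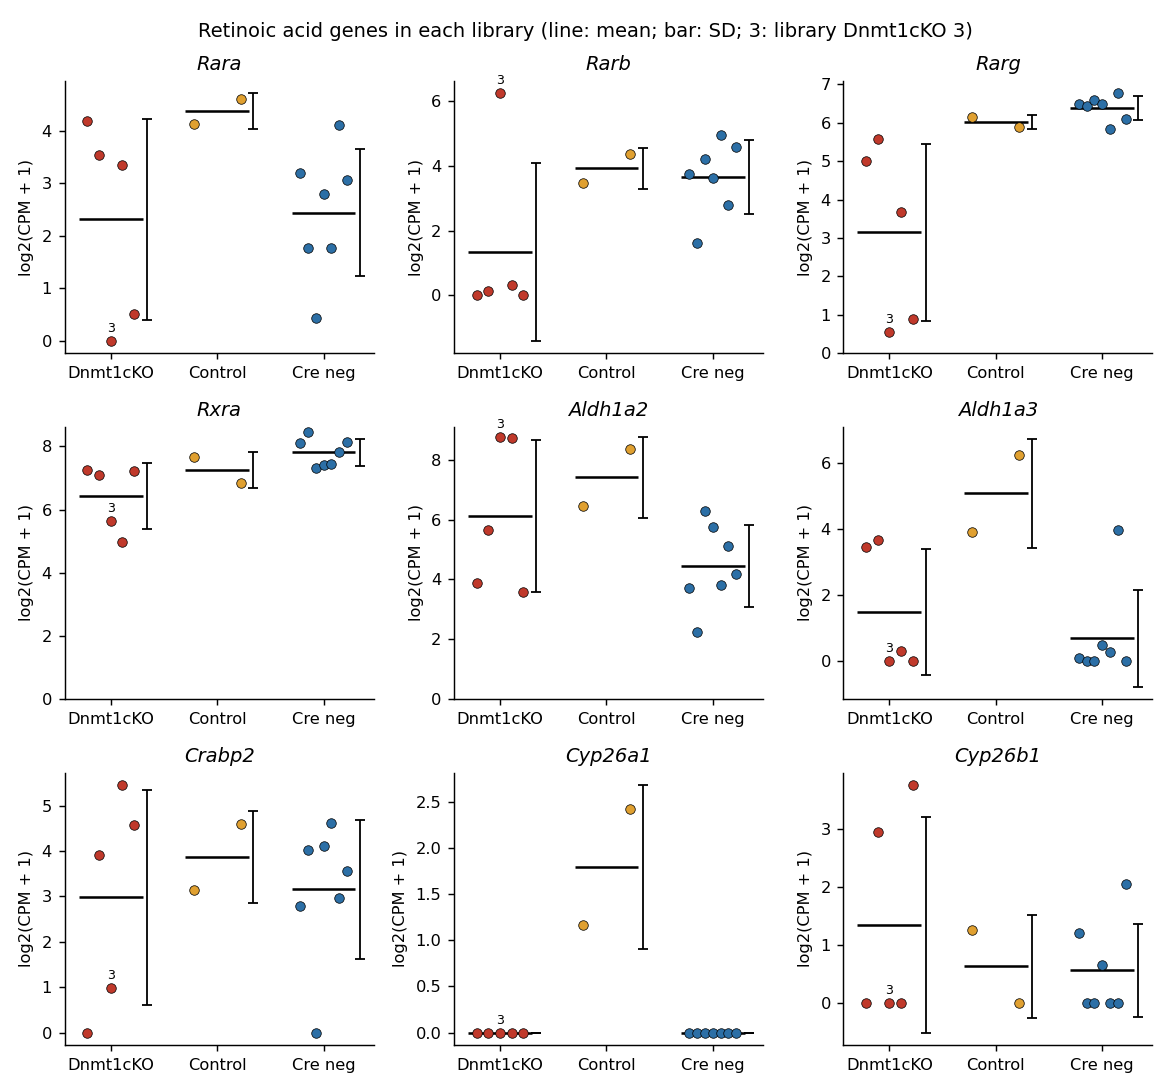
Level of each of the 9 genes in each library as log2(CPM + 1), with 1 point per library, the group mean as a line and the SD as a bar, for Dnmt1cKO (n = 5), Control (n = 2) and Cre neg (n = 7); the digit 3 marks the library labelled Dnmt1cKO 3. The 5 Dnmt1cKO points lie below all 7 Cre neg points for Rarg and Rxra, Rarb is near 0 in 4 of 5 Dnmt1cKO libraries, and Cyp26a1 has counts in the Control libraries alone.

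The comparison of Dnmt1cKO with Cre neg covers Shhcre together with the 2 floxed Dnmt1 alleles, whose parts cannot be told apart in it. Shh itself averaged 43.6 ± 38.1 CPM in Dnmt1cKO, 109 ± 66.4 CPM in Control and 267 ± 72.4 CPM in Cre neg (SD). The receptors Rarg and Rxra were lower in each of the 5 Dnmt1cKO libraries than in each of the 7 Cre neg libraries, and the synthesis enzyme Aldh1a2 was higher on average with overlapping groups. None of the differences in Rarg, Rxra and Aldh1a2 passed the test over all genes. Of the 9 genes 8 passed the filter on low counts, and 0 of 8 were called at an adjusted p under 0.05 by edgeR's quasi-likelihood test, against a background of 1.1% of the 13011 genes tested (0.915% higher and 0.184% lower). Without adjustment for the number of genes, 1 of the 8 (Aldh1a2) had p under 0.05 with a higher level and 2 (Rarg and Rxra) with a lower one, beside 6.66% and 7.03% of all genes. DESeq2 called 1 of the 8, Rarg, lower and 0 higher, beside 1.98% and 2.78% of all genes with an adjusted p. The median log2 fold change of the 8 was 0.40, beside -0.04 over all genes tested.

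Rarg encodes RAR gamma, the main retinoic acid receptor of many embryonic epithelia (chr15:102234938-102257517, minus strand). It measured 31.1, 46.8, 0.481, 11.8 and 0.870 CPM in Dnmt1cKO libraries 1 to 5, against 69.7 and 58.3 CPM in Control and a lowest, median and highest value of 55.9, 88.4 and 108 CPM in Cre neg. Every Dnmt1cKO value lay below every value of the other groups. The library labelled Dnmt1cKO 3 and Dnmt1cKO 5 had only 2 counts each. The means were 18.2 ± 20.2 CPM in Dnmt1cKO and 84.2 ± 17.5 CPM in Cre neg (SD, n = 5 and 7), a log2 fold change of -2.20 ± 0.73 (SE, edgeR adjusted p = 0.154). Without the library labelled Dnmt1cKO 3 it was -1.86 ± 0.62 (adjusted p = 0.175). With DESeq2 the adjusted p was 0.0454, and over the alternatives tried it ran from 0.0454 to 0.390.

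Rxra encodes RXR alpha, the partner that RARs need to bind DNA (chr2:27676440-27762957, plus strand). It measured 152, 135, 48.3, 30.7 and 147 CPM in Dnmt1cKO libraries 1 to 5, against 201 and 115 CPM in Control and 160, 224 and 349 CPM as the lowest, median and highest of Cre neg. The Dnmt1cKO values lay below those of Cre neg, with library 1 at 152 CPM and the lowest Cre neg library at 160 CPM, and they overlapped with Control. Levels averaged 103 ± 58.4 CPM in Dnmt1cKO and 233 ± 70.5 CPM in Cre neg (log2 fold change -1.18 ± 0.38, edgeR adjusted p = 0.136). Without the library labelled Dnmt1cKO 3 the log2 fold change was -0.98 ± 0.38 (adjusted p = 0.284). Over all genes tested, 0.999% had every Dnmt1cKO library below every Cre neg library, as 2 of the 8 genes did here. Urothelial and stroma markers moved with these groups too, at the values given above. With the stroma marker mean as a covariate, chosen with earlier results known, the log2 fold change was -1.82 for Rarg (adjusted p = 0.390) and -0.65 for Rxra (adjusted p = 0.586).

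**Figure D2:**
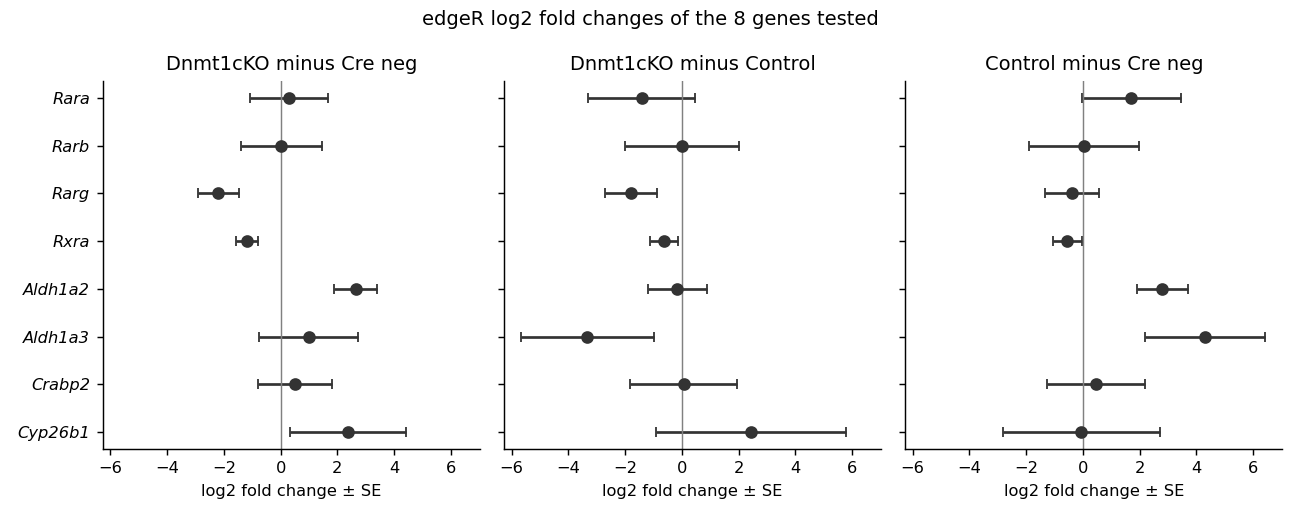
The log2 fold change of the 8 genes tested in the 3 comparisons, as edgeR estimates with bars of 1 SE. In Dnmt1cKO minus Cre neg, Rarg lies at -2.20, Rxra at -1.18 and Aldh1a2 at 2.65, and no gene passed the adjusted p threshold of 0.05 in any panel.

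Rarb encodes RAR beta, whose gene is itself a target of the receptors through the DR5 element shown above (chr14:16430839-16819156, minus strand). It measured 0, 0.104, 73.6, 0.242 and 0 CPM in Dnmt1cKO libraries 1 to 5, which are 0, 1, 306, 1 and 0 counts. In Control it measured 10.02 and 19.6 CPM, and in Cre neg 2.05, 12.5 and 29.8 CPM as the lowest, median and highest value, with counts in 7 of 7 libraries. Hence 4 of the 5 Dnmt1cKO libraries lay below every library of the other groups, and the library labelled Dnmt1cKO 3 lay above every one of them. The group means, 14.8 ± 32.9 CPM in Dnmt1cKO and 14.5 ± 9.59 CPM in Cre neg, were set by that 1 library (log2 fold change 0.03 ± 1.42, edgeR adjusted p = 0.999). Without it, an alternative in which each library is left out in turn, the log2 fold change was -6.99 ± 1.79 (adjusted p = 0.0657), and with the stroma marker mean added it was -8.05 ± 1.92 (adjusted p = 0.0551) in an alternative added after the values were seen. Neither passed 0.05. Dnmt1cKO 4 had a stroma marker mean of 7.08, close to the 7.24 of the library labelled Dnmt1cKO 3, and 1 count of Rarb. Markers of other tissues differed between these libraries. Endothelium, immune and erythroid markers averaged 1.63, 0.93 and 1.73 log2 CPM in the library labelled Dnmt1cKO 3. They averaged -0.07, -1.74 and 0.59 in Dnmt1cKO 4. Neural and glial markers averaged 0.51 and 5.18 log2 CPM in these libraries. The part of such tissues in the Rarb levels was not tested.

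Exons of Rarb overlap those of Top2b and Gm48162 on the other strand, and 1433 of the 3108 bases of its longest coding transcript (46.1%) are shared with Top2b at 100% identity. Whether the counting used strand is not given in the sources used here, so reads of this stretch cannot be assigned with certainty. Top2b, a DNA topoisomerase, measured 126, 408, 517, 127 and 344 CPM in Dnmt1cKO libraries 1 to 5, 301 to 401 CPM in Control and 51.8 to 469 CPM in Cre neg. The 4 Dnmt1cKO libraries with at most 1 count of Rarb thus held 440 to 3921 counts of Top2b.

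Rara encodes RAR alpha, the most broadly expressed RAR in the mouse (chr11:98927818-98974942, plus strand). It measured 17.1, 10.6, 0, 9.18 and 0.435 CPM in Dnmt1cKO libraries 1 to 5, 16.5 and 23.5 CPM in Control, and 0.346, 5.96 and 16.2 CPM as the lowest, median and highest of Cre neg. The Dnmt1cKO and Cre neg groups overlapped over nearly their whole range. The log2 fold change was 0.29 ± 1.39 (edgeR adjusted p = 0.976), and 0.62 ± 1.28 without the library labelled Dnmt1cKO 3 (adjusted p = 0.916).

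Among the RARs, Rarg had the highest level per length in 4 of 5 Dnmt1cKO, 2 of 2 Control and 7 of 7 Cre neg libraries. Its share of the summed RAR mRNA per kb was 67.6%, 83.3%, 0.683%, 59.0% and 69.6% in Dnmt1cKO libraries 1 to 5, 74.4% and 59.9% in Control and 64.8% to 95.5% in Cre neg. In the library labelled Dnmt1cKO 3, 99.3% of the sum was Rarb. The sum itself was 15.6, 19.0, 23.8, 6.80 and 0.423 CPM per kb in Dnmt1cKO, 31.7 and 33.0 in Control and 29.2 to 43.3 in Cre neg. All 5 Dnmt1cKO libraries were below the other 9 in this sum, as they were in Rarg, which was its largest part in each of those 9. The share of like sums of other genes with this order was not computed. The value of Dnmt1cKO 5 rests on 3 RAR counts in the library of lowest total. This sum was formed with the levels of its members known and is given without a test.

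**Figure D3:**
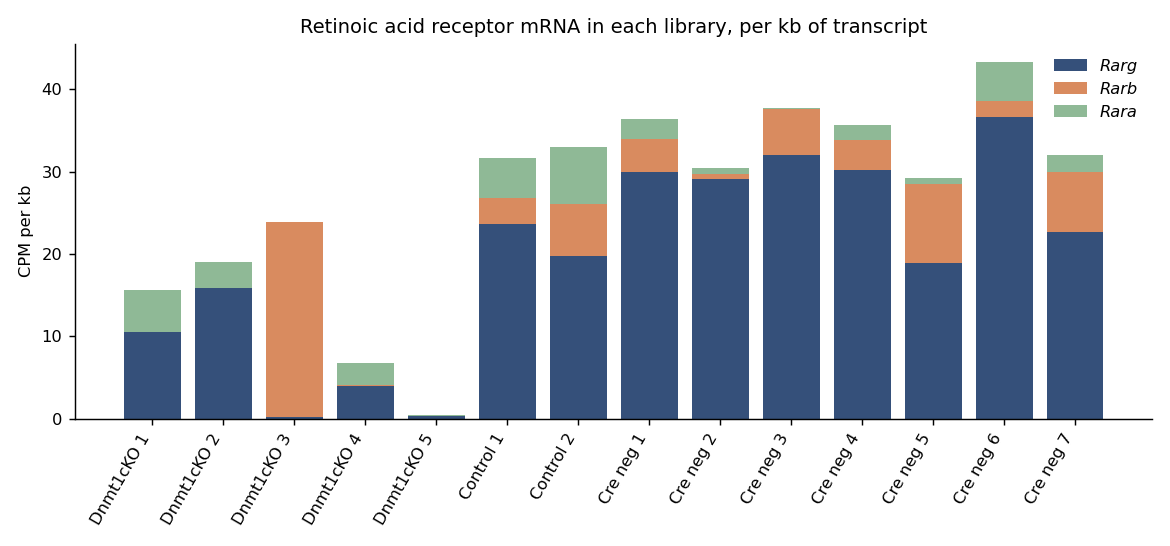
Summed level of the RAR mRNAs in each library, in CPM per kb of the longest coding transcript, divided into Rarg, Rarb and Rara. The Dnmt1cKO bars end between 0.423 and 23.8 CPM per kb, below Control (31.7 and 33.0) and Cre neg (29.2 to 43.3), and Rarg fills most of each bar except in the library labelled Dnmt1cKO 3, which is almost wholly Rarb.

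Aldh1a2 (also called Raldh2) is the main retinoic acid producing enzyme of embryonic mesenchyme (chr9:71215789-71296243, plus strand). It measured 13.7, 48.8, 437, 427 and 10.9 CPM in Dnmt1cKO libraries 1 to 5, 87.3 and 330 CPM in Control, and 3.75, 17.2 and 76.4 CPM as the lowest, median and highest of Cre neg. The library labelled Dnmt1cKO 3 and Dnmt1cKO 4 lay above all Cre neg libraries, and the other 3 Dnmt1cKO libraries lay within their range. Means were 187 ± 224 CPM in Dnmt1cKO and 29.9 ± 26.2 CPM in Cre neg (log2 fold change 2.65 ± 0.75, edgeR adjusted p = 0.0951). Without the library labelled Dnmt1cKO 3 it was 2.09 ± 0.77 (adjusted p = 0.249). It passed the threshold with no filter on low counts (adjusted p = 0.00349), without the 3 shallowest libraries (0.0193), without Dnmt1cKO 1 (0.0418) and without Dnmt1cKO 5 (0.0496), and over all alternatives the adjusted p ran from 0.00349 to 0.982. With the stroma marker mean as a covariate the log2 fold change was -0.16 ± 0.75 (adjusted p = 0.982).

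Across the 14 libraries Aldh1a2 went up, and Rxra down, with the stroma marker mean. For Aldh1a2, Pearson's r of log2 CPM was 0.81 (permutation p = 0.00072, adjusted over 8 genes 0.00288) and Spearman's rho was 0.69 (p = 0.00794, adjusted 0.0475). For Rxra, r was -0.76 (permutation p = 0.00056, adjusted 0.00288) and rho was -0.66 (p = 0.0119, adjusted 0.0475). Without the 2 libraries farthest from the median stroma mean, Cre neg 2 and Dnmt1cKO 1, r was 0.75 and -0.78 (permutation, adjusted p = 0.0261 and 0.0104). Within the 7 Cre neg libraries, r was 0.44 for Aldh1a2 (exact permutation p = 0.324, adjusted 0.719) and -0.76 for Rxra (exact permutation p = 0.0476, adjusted 0.381), so neither passed there. Within Dnmt1cKO (n = 5) and Control (n = 2) no correlation was computed. Rarg had r = -0.50 (permutation, adjusted p = 0.203), and the other 5 genes had r between -0.08 and 0.39 (permutation, adjusted p of 0.321 or more). All values were two-sided. Except within Cre neg, libraries were permuted without regard to group. The stroma marker mean averaged 5.22 in Dnmt1cKO, 6.50 in Control and 3.38 in Cre neg. These p-values therefore do not separate a relation within groups from differences between groups. The part of stromal tissue in the levels of these genes was not tested apart from the covariate fits.

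**Figure D4:**
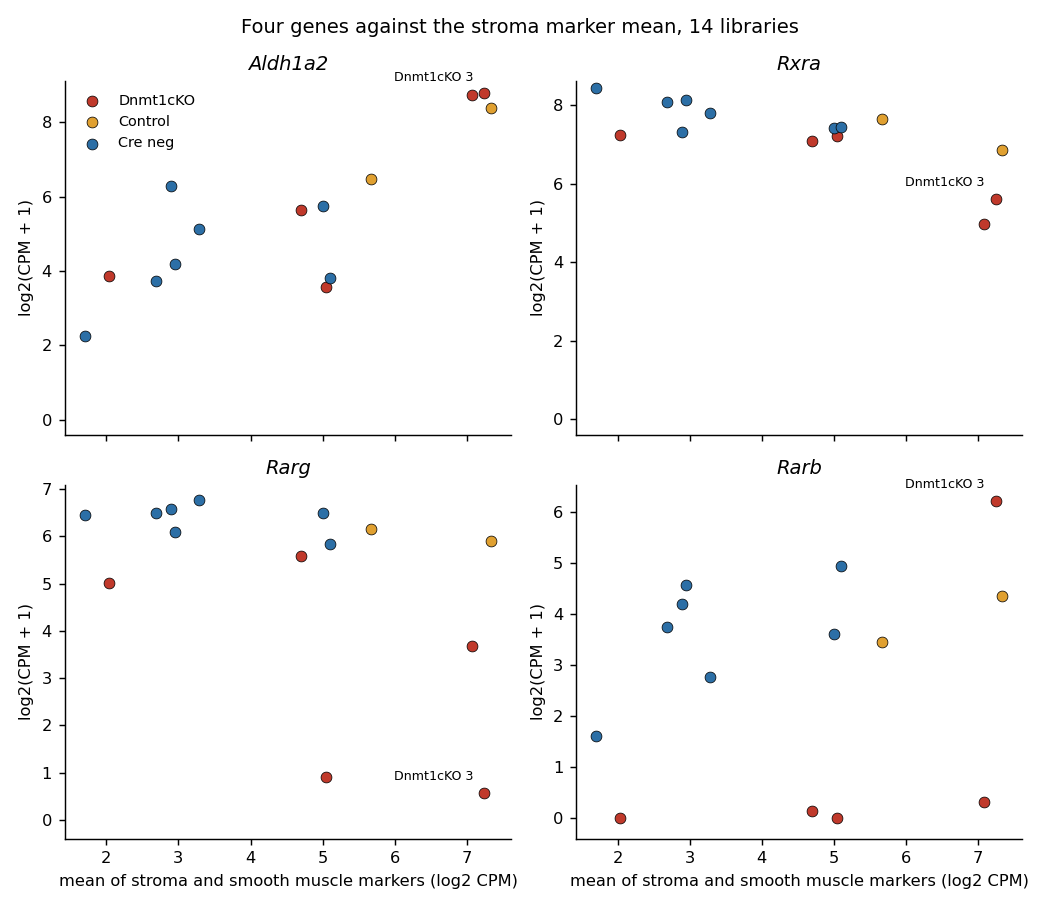
Level of Aldh1a2, Rxra, Rarg and Rarb as log2(CPM + 1) against the mean log2 CPM of 16 stroma and smooth muscle markers, with 1 point per library coloured by group. Aldh1a2 is highest and Rxra lowest at the right, where the library labelled Dnmt1cKO 3 (7.24), Dnmt1cKO 4 (7.08) and Control 2 (7.33) lie, while Rarb is high in the first of these and near 0 in Dnmt1cKO 4.

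Aldh1a3, the retinaldehyde dehydrogenase known from epithelia such as the Wolffian duct and ureteric tree (chr7:66390890-66427517, minus strand), was detected unevenly. It measured 9.99, 11.7, 0, 0.242 and 0 CPM in Dnmt1cKO libraries 1 to 5, 14.2 and 74.5 CPM in Control, and 0, 0.0722 and 14.8 CPM as the lowest, median and highest of Cre neg. In Cre neg, library 6 held 116 of the group's 124 counts. The Dnmt1cKO and Cre neg groups overlapped, with means of 4.38 ± 5.92 CPM and 2.21 ± 5.54 CPM (log2 fold change 0.99 ± 1.73, edgeR adjusted p = 0.900). Without the library labelled Dnmt1cKO 3 the log2 fold change was 1.32 ± 1.71 (adjusted p = 0.845). Aldh1a2 exceeded Aldh1a3 per length in all 14 libraries.

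Crabp2, the protein that hands retinoic acid to RARs (chr3:87948666-87953376, plus strand), measured 0, 14.1, 0.962, 42.8 and 22.6 CPM in Dnmt1cKO libraries 1 to 5, 7.88 and 23.0 CPM in Control, and 0, 10.8 and 23.4 CPM as the lowest, median and highest of Cre neg. Its groups overlapped, and the log2 fold change against Cre neg was 0.52 ± 1.30 (edgeR adjusted p = 0.943), or 0.85 ± 1.25 without the library labelled Dnmt1cKO 3 (adjusted p = 0.867).

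Cyp26b1, a retinoic acid hydroxylase (chr6:84571414-84593908, minus strand), was low throughout. It measured 6.77 CPM in Dnmt1cKO 2, 12.6 CPM in Dnmt1cKO 5 and 0 in the other 3 Dnmt1cKO libraries, 1.38 and 0 CPM in Control, and 0 to 3.16 CPM in Cre neg with counts in 3 of 7 libraries. The log2 fold change of Dnmt1cKO against Cre neg was 2.38 ± 2.05 (edgeR adjusted p = 0.706), or 2.74 ± 2.08 without the library labelled Dnmt1cKO 3 (adjusted p = 0.648). Cyp26a1, the hydroxylase most strongly induced by retinoic acid in embryos (chr19:37697798-37701536, plus strand), had 0 counts in all 5 Dnmt1cKO and all 7 Cre neg libraries, against 18 and 27 counts (1.24 and 4.37 CPM) in the Control libraries. It did not pass the filter on low counts. At these depths 3 counts, the limit set by counting error for a count of 0, correspond to at most 1.30 CPM in a library. The spread between libraries is not covered by this limit.

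The comparison of Dnmt1cKO with Control has Shhcre on both sides and differs in the number of floxed Dnmt1 alleles. Rarg and Aldh1a3 had all 5 Dnmt1cKO libraries below both Control libraries, which is 2 of 8 genes, while 9.74% of all genes tested had this order. By edgeR's quasi-likelihood test 0 of 8 were called, beside 0.177% of all genes higher and 0% lower. Without adjustment 0 of 8 had p under 0.05, beside 6.94% of all genes, and DESeq2 called 0 as well, beside 0.743% of all genes higher and 0.212% lower. Rarg averaged 18.2 ± 20.2 CPM in Dnmt1cKO and 64.0 ± 8.04 CPM in Control (log2 fold change -1.80 ± 0.91, edgeR adjusted p = 0.760). Aldh1a3 averaged 4.38 ± 5.92 CPM in Dnmt1cKO and 44.3 ± 42.6 CPM in Control (log2 fold change -3.33 ± 2.34, edgeR adjusted p = 1). Rarb, with a log2 fold change of 0.000445 ± 2.02, stood at -7.03 without the library labelled Dnmt1cKO 3 (edgeR adjusted p = 0.297), where Rarg stood at -1.47 ± 0.75 (0.704) and Aldh1a3 at -2.99 ± 2.34 (0.980). Rxra had -0.62 ± 0.51, Rara -1.42 ± 1.89 and Aldh1a2 -0.15 ± 1.05, all with an adjusted p of 1. By counting error alone, Cyp26a1 was at least 17.2-fold higher in Control, with its 45 counts set against 3 counts over the summed Dnmt1cKO libraries. With no filter on low counts its p was 0.0152 and its adjusted p 0.546. The 2 Control libraries limit the precision of each of these values. The Dnmt1cKO libraries are the same as in the comparison with Cre neg.

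The comparison of Control with Cre neg concerns Shhcre and 1 floxed allele with Dnmt1 left on the other. Cyp26a1, Aldh1a2 and Rara had both Control libraries above all 7 Cre neg libraries. Of the 8 genes tested 0 were called by edgeR's quasi-likelihood test, beside 0.0538% of all genes higher and 0% lower, and DESeq2 called 0, beside 0.112% higher and 0.104% lower. Without adjustment 1 of 8, Aldh1a2, was higher with p under 0.05 and 0 were lower, beside 3.49% and 0.177% of all genes. Aldh1a2 averaged 209 ± 171 CPM in Control and 29.9 ± 26.2 CPM in Cre neg (log2 fold change 2.80 ± 0.90, edgeR adjusted p = 0.381). With the stroma marker mean as a covariate its value was -0.35. Rara averaged 19.99 ± 4.92 CPM in Control and 6.11 ± 5.29 CPM in Cre neg (log2 fold change 1.71 ± 1.74, edgeR adjusted p = 1). The lower Control value of 16.5 CPM stood just above the highest Cre neg value of 16.2 CPM. Over all genes tested, 6.04% had both Control libraries above every Cre neg library, against 2 of the 8 genes here.

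Aldh1a3 averaged 44.3 ± 42.6 CPM in Control and 2.21 ± 5.54 CPM in Cre neg (log2 fold change 4.31 ± 2.12, edgeR adjusted p = 1). By counting error alone, Cyp26a1 was at least 45.5-fold higher in Control, its 45 counts set against 3 over the summed Cre neg libraries. With no filter on low counts its edgeR p was 0.00277 and its adjusted p 0.237. Beside these genes, the 8 Wolffian duct markers averaged -1.16 ± 0.65 log2 CPM in Dnmt1cKO, 3.32 ± 1.24 in Control and -0.86 ± 0.49 in Cre neg. Their summed level was 0 to 42.8 CPM, 61.7 to 205 CPM and 9.76 to 38.5 CPM in these groups. Pax2 and Lhx1, transcription factors of the duct, were at 0 in all Dnmt1cKO and Cre neg libraries and had counts in both Control libraries. Of the 8 markers 4 were at 0 in every Dnmt1cKO library, 2 in every Cre neg library and 0 in Control. The 5 mesothelium markers averaged 3.02 ± 0.57 log2 CPM in Dnmt1cKO, 5.07 ± 0.74 in Control and 2.39 ± 0.54 in Cre neg. Their summed level overlapped between these groups, at 160 to 454 CPM, 303 to 357 CPM and 93.9 to 420 CPM. Wt1, Lrrn4 and Gpm6a averaged 88.3, 5.05 and 16.5 CPM in Control and 4.26, 0 and 0.190 CPM in Cre neg. Msln and Upk3b were not higher in Control, at 88.5 and 132 CPM against 89.2 and 171 CPM in Cre neg. The part of either tissue in the Control levels of Cyp26a1, Aldh1a3 and Aldh1a2 was not tested.

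For the 7 genes of at least 5 CPM on average (Cyp26a1 and Cyp26b1 were lower), the genes whose levels followed theirs most closely over the 14 libraries were found by Spearman's rho among 10518 candidates of the same minimum level, as a description. The closest to Rara was Aldh1a3 (rho 0.91, r 0.72), and the closest to Aldh1a3 was in turn Rara. Both were at 0 in the library labelled Dnmt1cKO 3 and highest in Control 2. Rarg was followed by Tbc1d8 (rho 0.98), Pank1 and A4galt (rho 0.92 each), and Rxra by Tmc7 (rho 0.92), Ap1g2 and Tmem50b. For Aldh1a2 the closest were Lsp1, Lox, which cross-links collagen, and Dbn1 (rho 0.91 each). For Rarb they were Hist1h2bc (rho 0.91), Oxnad1 and Rbms2, and for Crabp2 Tenm4 (rho 0.86), Hmcn1 and Pla2g7. These libraries share differences in depth and in marker levels of other tissues.

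The wider pathway was read from 44 other genes in lists by role, all of them measured and 34 of them tested; these lists hold 45 symbols because Bcmo1 is also known as Bco1. Against Cre neg, 1 rose and 1 fell in Dnmt1cKO by edgeR's quasi-likelihood test, beside 0.915% and 0.184% of all genes tested, with 17 positive and 17 negative log2 fold changes and a median of -0.06. Without adjustment, 6 had p under 0.05 with a higher level and 2 with a lower one, Stra8 and Aldh1a7 included, beside 6.66% and 7.03% of all genes. DESeq2 called 3 higher and 1 lower, beside 2.78% and 1.98%. Against Control 0 of 34 were called in Dnmt1cKO by edgeR (unadjusted, 1 higher and 1 lower, beside 6.94% of all genes in either direction; by DESeq2, 1 higher, beside 0.743%), and in Control against Cre neg 0 were called by either tool (unadjusted, 2 higher and 0 lower, beside 3.49% and 0.177%).

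Stra8, a gene induced by retinoic acid in germ cells at the entry into meiosis, rose in Dnmt1cKO. It measured 48.8, 12.3, 39.0, 25.1 and 0 CPM in Dnmt1cKO libraries 1 to 5, was at 0 in both Control libraries, and had 1 count in all of Cre neg. It was thus present in 4 of 5 Dnmt1cKO libraries and at 0 in Dnmt1cKO 5. The gene passed the filter on low counts through the Dnmt1cKO libraries alone, the group in which it was high. The ratio of 555 to 1 counts, scaled to the depth of the groups, was 1467 (95% counting interval 262 to 58027; edgeR adjusted p = 0.00726). Against Control it was at least 161-fold higher by counting error alone (edgeR adjusted p = 0.490). The call held in 20 of 24 alternatives, with each library left out in turn among them (adjusted p at most 0.0300). With the replicate number as a block the adjusted p was 0.390, and in the other 3 the gene did not pass the filter.

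Aldh1a7, a close relative of the retinal dehydrogenase Aldh1a1, fell in Dnmt1cKO. It measured 199, 366, 199, 141 and 477 CPM in Dnmt1cKO libraries 1 to 5, 551 and 313 CPM in Control, and 553, 630 and 783 CPM as the lowest, median and highest of Cre neg. The 5 Dnmt1cKO libraries lay below all 7 Cre neg libraries and overlapped with Control. Means were 277 ± 140 CPM in Dnmt1cKO and 637 ± 82.6 CPM in Cre neg (log2 fold change -1.20 ± 0.29, edgeR adjusted p = 0.0330). The call held in 10 of 24 alternatives. It was lost with the stroma marker mean as a covariate (adjusted p = 0.184) and without any 1 of Dnmt1cKO 1, the library labelled Dnmt1cKO 3, Dnmt1cKO 4 and Cre neg 1, 3, 4, 5, 6 and 7, where the adjusted p lay between 0.0585 and 0.102. The log2 fold change was -1.09 with the covariate and between -1.22 and -1.04 without those libraries, close to the -1.20 of all libraries. Its transcript is 89.1% identical to that of Aldh1a1, so some reads may have been divided between them by the counting.

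In the other roles no gene was called against Cre neg by edgeR's quasi-likelihood test, and without adjustment 2 genes of interconversion were higher and 1 carrier, Ttr, was lower with p under 0.05. Among the genes of retinol uptake and transport, the plasma carrier Ttr averaged 24.9 ± 25.3 CPM in Dnmt1cKO and 83.1 ± 60.5 CPM in Cre neg (adjusted p = 0.306). Among 8 genes of retinol and retinal interconversion, the alcohol dehydrogenase Adh1 averaged 371 ± 213 CPM in Dnmt1cKO and 497 ± 139 CPM in Cre neg. Its relative Adh7 measured 37.4, 8.65, 6.01, 0 and 0 CPM in Dnmt1cKO libraries 1 to 5 and at most 1.95 CPM in Cre neg (log2 fold change 5.03 ± 2.07, adjusted p = 0.267). Fabp5, the carrier that brings retinoic acid to PPAR beta/delta, averaged 443 ± 152 CPM in Dnmt1cKO and 607 ± 154 CPM in Cre neg (adjusted p = 0.482). Rxrb, another RXR, averaged 23.9 ± 23.6 CPM in Dnmt1cKO and 40.9 ± 18.0 CPM in Cre neg, and Cyp26c1 had 0 counts in all libraries.

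Of the 6 coregulators, the corepressor Ncor1 averaged 171 ± 72.7 CPM in Dnmt1cKO and 190 ± 44.7 CPM in Cre neg, and the coactivator Ncoa2 7.92 ± 11.3 CPM and 31.8 ± 14.1 CPM (adjusted p = 0.479). Of 12 tested retinoic acid responsive genes, Stra8 was the one called, and the orphan receptor Nr2f2 averaged 405 ± 78.9 CPM in Dnmt1cKO and 546 ± 148 CPM in Cre neg (adjusted p = 0.476).

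**Figure D5:**
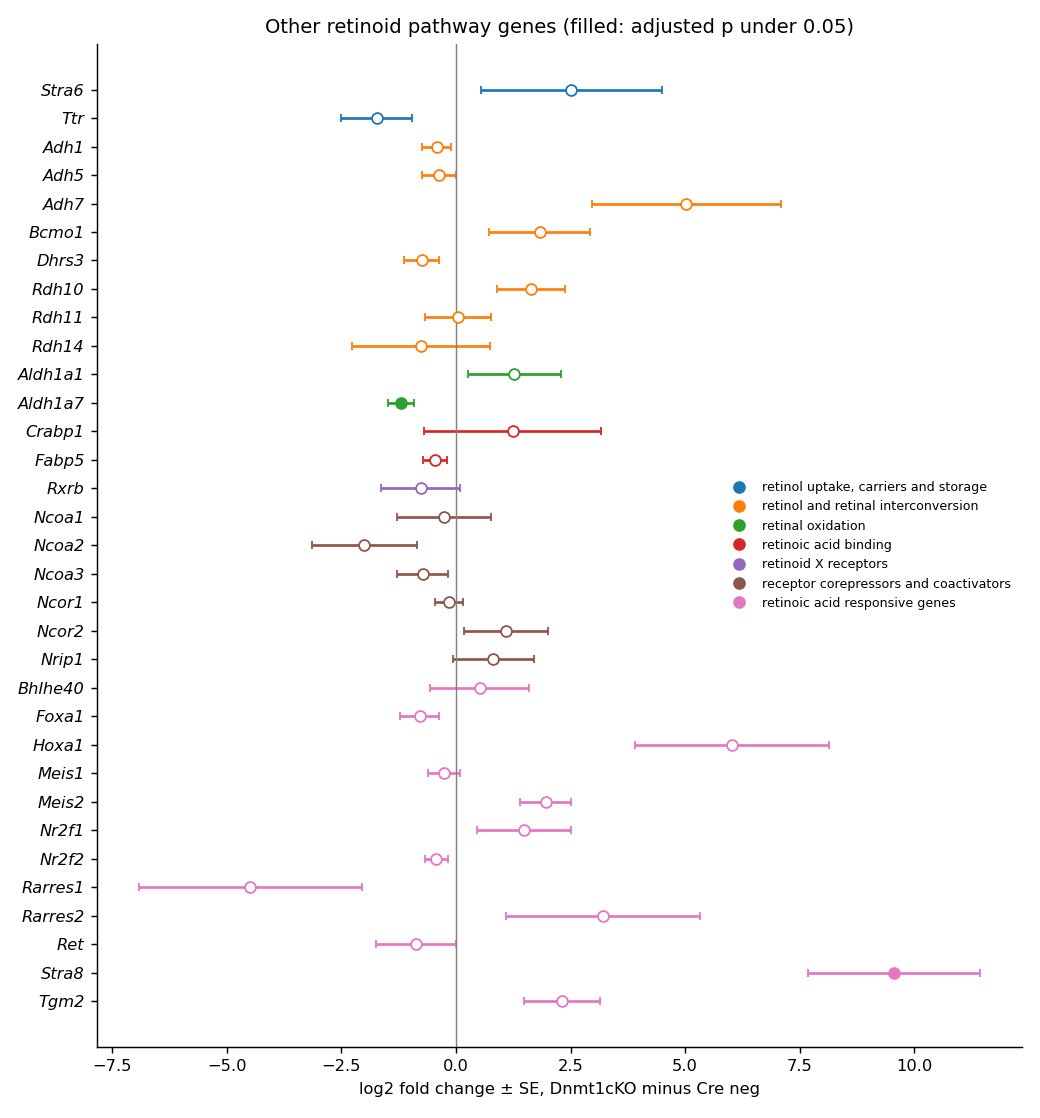
The log2 fold change with 1 SE, Dnmt1cKO minus Cre neg, of genes tested in the other lists of the retinoid pathway (1 is not shown), coloured by role, with filled points for an adjusted p under 0.05. Stra8 lies far to the right and Aldh1a7 at -1.20, and the open points lie on both sides of 0.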

How the data were processed

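The deposited table held the authors' RSEM expected counts by gene symbol for the 14 libraries, not scaled to depth. Tools named in the submitters' processing notes are bcl2fastq 2.17.1.14, Bowtie 0.12.9 and RSEM 1.2.3, with build mm10; the annotation and the use of strand are not given in the sources used here. From 7.31% to 21.9% of a library's values were not whole, and they were rounded. Genes passing filterByExpr (13011) were tested by the quasi-likelihood test of edgeR 4.0.16 (R 4.3.3), with TMM scaling, the 14 libraries of 3 groups in 1 fit and no covariate, and called at a Benjamini-Hochberg adjusted p under 0.05 over all of them. CPM errors are SDs and fold-change errors are SEs. Log2 CPM used a prior count of 2. Intervals and floors (3 counts) cover counting error only, since PCR was used and no molecular identifiers are described. Correlations were tested by 100000 permutations without regard to group, or exactly within Cre neg, with SciPy 1.17.1. Positions and lengths came from GENCODE M21 (GRCm38, which is mm10), transcript identity from BLAST+ 2.17.0 and promoters from RefSeq. The edgeR test was also run on simulated counts. These were drawn with a spread set by mean level alone, so the run does not cover genes with an outlying library, such as Rarb.

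The 9 genes, the other lists and the marker lists were chosen with earlier results of these data known. The rule named the 9 genes, every listed pathway gene called in any comparison, the gene of highest mean CPM and that of smallest p in each list, and the 3 genes most like each of the 9 that averaged at least 5 CPM, which left out Cyp26a1 and Cyp26b1. Other listed genes are given as counts, and 1 gene that the rule names is not reported here. Alternatives were RLE scaling, DESeq2 1.42.0, no filter, at least 1 CPM in at least 5 libraries, the replicate block, a stroma covariate, the compared groups alone, Control pooled with Cre neg, omission of the 3 shallowest libraries and of each library in turn.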

Additional observations from a re-analysis of the deposited data

Results flagged for a closer look

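Values of the 8 tested genes were checked for a library far from the rest of its group. The check covered 16 sets of values, each from the 5 Dnmt1cKO or the 7 Cre neg libraries, and 3 held a library that stood apart. Control, with 2 libraries, was not checked. Its critical values give about 1 in 20 by chance only for normally distributed values. The values checked were CPM, many of them at or near 0, so that rate does not hold here. Rarb in the library labelled Dnmt1cKO 3, at 73.6 CPM, had its nearest neighbour in Dnmt1cKO at 0.242 CPM, a gap of 0.997 of the group's range (critical value 0.71). Aldh1a3 in Cre neg 6 measured 14.8 CPM with the next library at 0.403 CPM (0.973 of the range, critical value 0.568). Cyp26b1 in Cre neg 7 measured 3.16 CPM with the next at 1.30 CPM (0.589 of the range, critical value 0.568).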

How the results depend on the processing

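Of 557 log2 fold changes under the alternatives, 491 kept direction and side of the threshold, 60 changed sign and 6 newly passed it; the cause was not tested. Against Cre neg, Dnmt1cKO had 1 gene called higher with no filter (Aldh1a2, 2.65), 1 without the 3 shallowest libraries (3.16) and 0 to 1 with each library left out, and 1 lower with DESeq2 (Rarg, -2.16). The depth of Dnmt1cKO 5 limits every low gene.

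Replicate numbers recur between groups, but the labels tie them to no shared litter or day. Deviations of same-numbered libraries correlated between -0.161 and 0.103, so the numbers are not taken as pairs. With the number as a block, Dnmt1cKO against Cre neg had 64 genes higher and 11 lower over all genes (119 and 24 without), Rara was -0.067 and Rarb -5.42. Against Control, Dnmt1cKO then had Rarb -6.94 and Crabp2 -0.81. Control against Cre neg had 1 of the 8 genes called, Aldh1a2 (4.34, adjusted p = 0.00998), and 19 genes called higher over all genes (7 without). Stra8 (9.22, against 9.56 without the block) and Aldh1a7 (-1.27, against -1.20) lost their calls at nearly the same log2 fold change.

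For Dnmt1cKO against Cre neg, the stroma covariate gave Rarb -6.50, Aldh1a2 -0.16 and Crabp2 -0.85, and the same covariate without the library labelled Dnmt1cKO 3, added after seeing the data, gave -8.05, -0.19 and -0.82. Control pooled with Cre neg gave Rara -0.30 and Aldh1a3 -1.40. With each library left out the log2 fold change ran from -6.99 to 0.35 for Rarb, -0.26 to 0.75 for Rara, -0.26 to 0.85 for Crabp2 and 2.09 to 3.08 for Aldh1a2.

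For Dnmt1cKO against Control, Rarb was -0.0049 with RLE scaling, -0.0054 with DESeq2, -0.0085 with the stricter filter, -0.019 with the compared groups alone, -1.08 with the stroma covariate and -6.29 with that covariate and without the library labelled Dnmt1cKO 3. Aldh1a2 was 0.19 with the covariate and 0.51 without the 3 shallowest libraries. With each library left out, Rarb ran from -7.03 to 0.59, Aldh1a2 from -0.81 to 1.11 and Crabp2 from -0.71 to 1.04.

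For Control against Cre neg, the stroma covariate gave Rarb -5.42, Rarg 0.70, Rxra 0.56, Aldh1a2 -0.35, Crabp2 -1.45 and Cyp26b1 2.55. With that covariate and without the library labelled Dnmt1cKO 3 they were -1.76, 0.25, 0.49, -0.14, -1.89 and 1.65. Rarb was -0.12 without the 3 shallowest libraries. With each library left out, Rarb ran from -0.51 to 0.48, Crabp2 from -0.50 to 1.07 and Cyp26b1 from -5.39 to 1.08.

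Within Cre neg, r with the stroma mean was 0.086 for Rara (exact permutation, adjusted p = 0.881), -0.76 for Rxra (0.381) and 0.44 for Aldh1a2 (0.719); without the 2 farthest libraries it was -0.063 for Rarb. Over all genes, Dnmt1cKO against Cre neg had 329 higher and 234 lower with DESeq2, 205 and 44 with no filter, 75 and 9 with the covariate, 76 and 10 with the compared groups alone, and 5 to 84 lower with each library left out. Against Control (23 higher, 0 lower) DESeq2 gave 91 and 26, no filter and the covariate 2 lower each, and leaving out each library 6 to 27 higher and 0 to 15 lower. Control against Cre neg (7 higher, 0 lower) had 14 and 13 with DESeq2, 25 higher with no filter, 4 with the covariate and 2 to 11 with each library left out.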
